A study of Mus musculus with 8 samples.

Results

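Histone modifying and remodelling enzymes were taken as a list of 52 gene symbols, chosen with earlier results of these data known. All 52 were found among the 27179 genes of the deposited table. All 52 also passed the filter on low expression, as did 13262 genes in all. The RNA came from 8 subcutaneous tumors of C26, a mouse colon carcinoma line, grown in adult male CD2F1 mice from its cachexia-inducing strain cxC26. Cells of the 4 cxC26 scr tumors carried Cas9 and a scrambled guide, and those of the 4 cxC26 IL6KOs1 tumors carried Cas9 and guides against the IL-6 gene. Both kinds of cells had been transduced with lentiviral lentiCRISPRv2 vectors and drug-selected. The knockout line is 1 subclone, so its 4 tumors do not sample different clones. The study's methods give more cells per inoculum and a later endpoint for the knockout line, and the mice were killed once they had lost more than 15% of body weight. Genotype, clone, inoculum and age of the tumor therefore cannot be told apart in any difference below. In mixed tissue, fewer cells of a type and less RNA per cell cannot be told apart either.

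Histone tails are written by methyltransferases and acetyltransferases and erased by demethylases and deacetylases, and ATP-driven remodellers of the SWI/SNF (BAF) and CHD families slide or evict nucleosomes. Methylation of lysine 4 of histone H3 (H3K4) marks promoters and enhancers and that of lysine 36 transcribed gene bodies, whereas methylation of lysine 27 by Polycomb repressive complex 2 and of lysine 9 accompanies silencing. Many of these enzymes are recurrently altered in cancers.

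Reads on genes came to between 14158989 and 17048062 per tumor. Levels are in log2 CPM, the log2 of read counts scaled to an effective library size, which was 96.2% to 101.9% of those reads. Il6 itself stood at 4.42, 4.33, 4.73 and 4.83 log2 CPM in scr tumors 1 to 4. In IL6KOs1 tumors 1 to 4 it stood at 1.99, 2.03, 2.46 and 2.04, a log2 fold change of -2.45. Host cells can contribute to the transcript in either group. Pan-leukocyte markers rose with the knockout, all 4 of 4 passing the test, and their mean level was 5.17 to 5.44 log2 CPM in scr tumors and 5.93 to 6.94 in IL6KOs1 tumors, highest in IL6KOs1 tumor 1, which also stood apart from the other 3 on the second principal component. Macrophage markers passed in 5 of 5 cases, at 5.72 to 5.85 against 6.66 to 7.25, while the scores of fibroblast markers (8.62 to 9.12 and 8.48 to 9.07) and proliferation markers (7.75 to 7.96 and 7.57 to 7.89) overlapped. Single genes of those lists still changed, with Pdgfra at -0.78 and Lum at 1.01 among fibroblast markers and Mki67 at -0.38, Top2a at -0.39, Mcm2 at -0.26 and Cdk1 at 0.34 among proliferation markers (log2 fold changes). All 3 tested of 5 T cell markers rose, with a score of -3.06 to -1.18 in scr and 0.34 to 1.14 log2 CPM in IL6KOs1 tumors. Of 2 tested B and plasma cell markers, Jchain rose from a mean of -1.24 to 3.67 log2 CPM. The other, Cd79a, did not pass (log2 fold change 0.29, limma adjusted p = 0.693). Of 3 tested neutrophil markers 1 rose, S100a8, and the neutrophil scores overlapped (-0.37 to 0.63 in scr and -0.08 to 0.86 log2 CPM in IL6KOs1 tumors). Of the 7 epithelial markers, Epcam, Krt8, Krt19 and Vil1 did not pass the filter in these carcinomas, and the other 3 all changed. Mean levels went from 0.67 to 3.87 log2 CPM for Krt18, from 0.65 to 2.11 for Cdh1 and from 0.76 to -4.52 for Cdx2. Skeletal muscle scores varied widely within both groups, from 0.10 to 4.23 log2 CPM in scr and from 1.71 to 5.28 in IL6KOs1 tumors. Of the 5 muscle markers 1 passed, Myh1 at a log2 fold change of 1.96 (limma adjusted p = 0.0443). The part of leukocytes, of muscle, of proliferation and of these epithelial changes in the differences below was not tested.

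The chromatin enzymes were mostly lower in IL6KOs1 tumors. Because the list was chosen with earlier results of these data known, the shares below describe it and do not measure an excess. By limma with Benjamini-Hochberg adjustment over all tested genes and a threshold of 0.05, 24 of 52 members (46.2%) fell, against 20.7% of all tested genes, and 1 member (1.92%), Smarca2, rose, against 19.1% of all tested genes. The other 27 members did not pass, and 20 of those had a fold change below 0. Counts within the role groups below were not tested against these shares of all tested genes. The median log2 fold change was -0.23 over the members and -0.003 over all tested genes, and 44 of 52 members (84.6%) had a negative value, against 50.3% of tested genes. In 24 members the groups did not overlap, 22 of them lower and 2 higher in IL6KOs1 tumors, which is 46.2% against 37.1% of tested genes. Most changes were modest, and 9 of the 24 lower members changed by at least 1.5-fold. Without IL6KOs1 tumor 1, the one with the most leukocyte transcripts, 23 members fell and 2 rose.

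**Figure D1:**
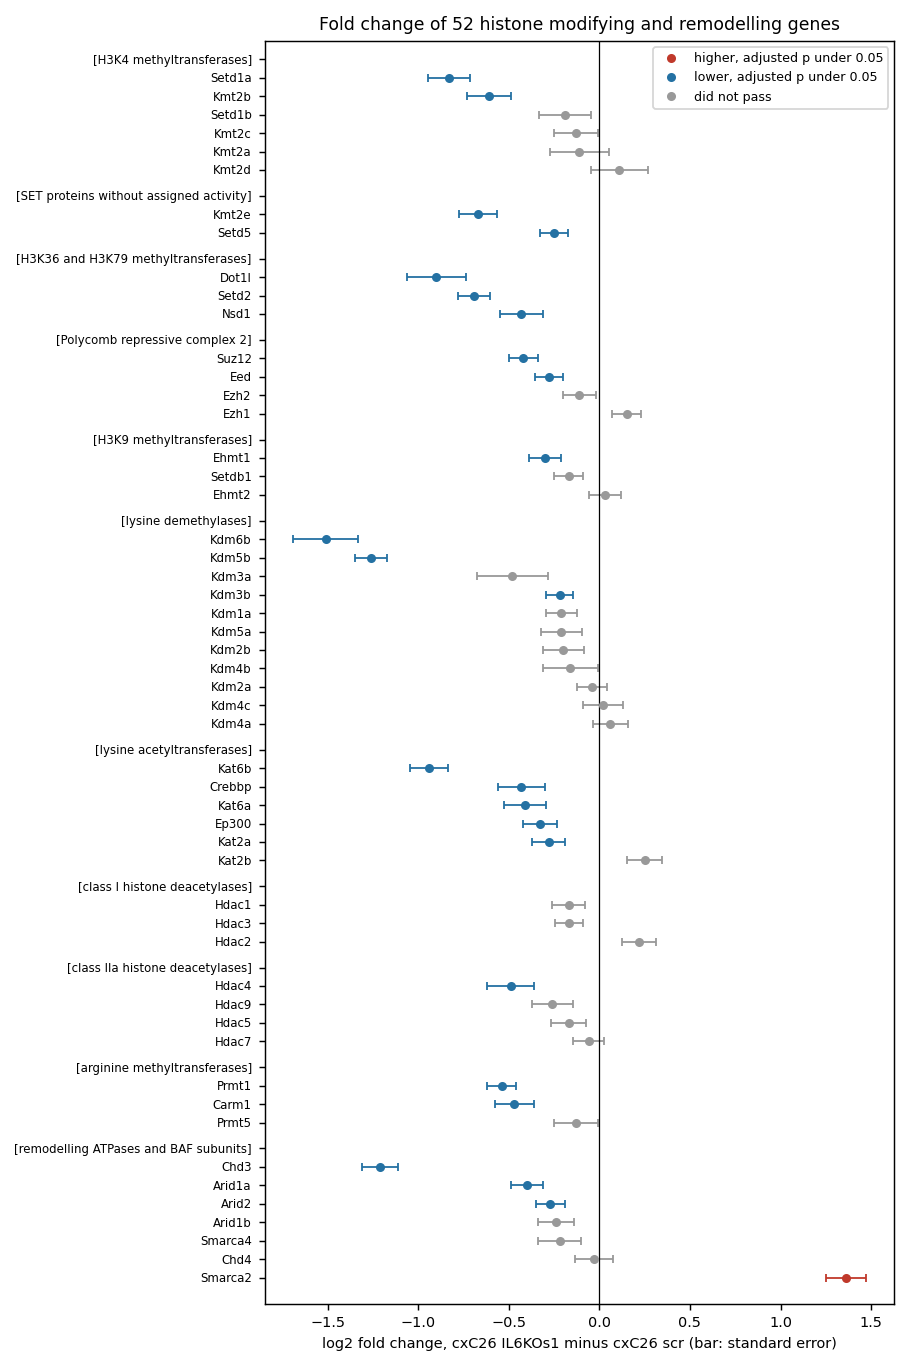
Log2 fold change (IL6KOs1 minus scr, x axis) of each of the 52 members, grouped by role, with bars for the standard error from limma. Points in blue fell, the red point (Smarca2, at 1.36) rose and grey points did not pass an adjusted p of 0.05, and the blue points reach down to Kdm6b at -1.51.

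Promoter sequences were looked up in a RefSeq table for GRCm38.p6, which holds 37 of the 52 members. For Smarca2, the largest increase, and for Kdm5b and Kat6b, the largest decreases with an entry, the 250 bases before the start listed there are given below. They are on the plus strand, 5′ to 3′, with each CG dinucleotide in capitals, because CG content is the feature compared next.
Smarca2, chr19:26604910-26605159: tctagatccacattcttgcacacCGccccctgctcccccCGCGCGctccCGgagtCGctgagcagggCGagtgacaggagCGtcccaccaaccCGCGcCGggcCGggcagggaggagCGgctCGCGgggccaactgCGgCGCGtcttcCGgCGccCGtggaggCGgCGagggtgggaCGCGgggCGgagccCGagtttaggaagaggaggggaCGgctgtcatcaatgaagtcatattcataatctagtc
Kdm5b, chr1:134559928-134560177: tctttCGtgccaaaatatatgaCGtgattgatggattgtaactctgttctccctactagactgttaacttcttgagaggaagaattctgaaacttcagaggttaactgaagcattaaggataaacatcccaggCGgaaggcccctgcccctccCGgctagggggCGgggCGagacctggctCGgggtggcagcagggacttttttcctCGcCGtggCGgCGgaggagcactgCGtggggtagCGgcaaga
Kat6b, chr14:21499520-21499769: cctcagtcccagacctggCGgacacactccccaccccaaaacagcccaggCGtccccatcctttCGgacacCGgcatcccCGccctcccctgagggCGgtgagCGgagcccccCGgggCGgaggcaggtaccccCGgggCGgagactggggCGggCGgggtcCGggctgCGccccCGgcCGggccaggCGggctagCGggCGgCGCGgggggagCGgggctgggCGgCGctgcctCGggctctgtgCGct
The Smarca2 window holds 28 CG dinucleotides, that of Kdm5b 13 and that of Kat6b 27, the last being the first of 2 starts listed. By the gene positions used elsewhere here, Smarca2 starts at 26605073 and Kat6b at 21499216. The Smarca2 window therefore ends inside that gene, and the Kat6b window lies wholly inside its gene. The median over the 37 members was 21, with 63.6% G and C, against 6 and 52% over the 27025 genes of the table. Both strands were searched for TTCNNNGAA, the form bound by STAT factors, for TGACGTCA and for CACGTG, none of which contains another. TTCNNNGAA was in 1 member window (Kmt2d, 2.70%) and 7.18% of all windows, and CACGTG in 2 (Ehmt2 and Prmt1, 5.41%) and 6.05%. TGACGTCA occurred in 1.62% of all windows and in 0 of 37 member windows, which says only that these letters are not in these windows. None of the 3 sequences printed above holds any of the 3 motifs.

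Methyltransferases of H3K4 were divided, with 2 of 6 lower, against 20.7% of all tested genes. Setd1a, a catalytic subunit of a SET1/COMPASS complex, was at 7.15, 7.03, 7.19 and 7.13 log2 CPM in scr tumors 1 to 4 and at 6.63, 6.13, 6.07 and 6.36 in IL6KOs1 tumors 1 to 4. Every knockout tumor was below every control, and the gene fell to 56.4% of the scr level (log2 fold change -0.83 ± 0.12, SE, limma adjusted p = 0.000273). Of its exon bases, 51.8% also belong to Gm49388 on the same strand, so the counting could have split or dropped its reads.
Kmt2b, which serves promoters in a related complex, had 6.46, 6.34, 6.64 and 6.66 log2 CPM in scr tumors and 6.15, 5.70, 5.72 and 6.10 in IL6KOs1 tumors, again without overlap, and fell by 0.61 on the log2 scale (SE 0.12, limma adjusted p = 0.00241). The other 4 enzymes of the group did not pass. Kmt2a, Kmt2c and Setd1b had log2 fold changes of -0.11, -0.13 and -0.19, and Kmt2d, an enhancer methyltransferase with the most reads of all members, had 0.11.

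Kmt2e and Setd5 carry a SET domain, the fold of lysine methyltransferases, but no firmly assigned histone activity. Kmt2e was at 6.58, 6.47, 6.82 and 6.74 log2 CPM in scr tumors and at 6.16, 5.75, 6.01 and 6.0 in IL6KOs1 tumors, a log2 fold change of -0.67 ± 0.11 (SE, limma adjusted p = 0.000573), and 9.31% of its exon bases overlap Srpk2 on the other strand. Setd5 had 7.40, 7.39, 7.40 and 7.44 log2 CPM in scr tumors and 7.29, 7.05, 7.15 and 7.14 in IL6KOs1 tumors. Its groups were close but separate, and the change of -0.25 ± 0.08 (limma adjusted p = 0.0213) missed the threshold when scr tumor 3, scr tumor 4, IL6KOs1 tumor 2 or IL6KOs1 tumor 3 was left out (adjusted p between 0.0509 and 0.0600). With a smooth trend on transcript length and GC content removed in each tumor, it was -0.11 (adjusted p = 0.201).

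All 3 methyltransferases of H3K36 and H3K79 fell, against 20.7% of all tested genes. Dot1l, the H3K79 methyltransferase, stood at 6.61, 6.28, 6.68 and 6.70 log2 CPM in scr tumors and at 5.87, 5.20, 5.58 and 6.01 in IL6KOs1 tumors. That is 53.6% of the scr level (log2 fold change -0.90 ± 0.16, SE, limma adjusted p = 0.00118), with the lowest value in IL6KOs1 tumor 2.
Setd2, which trimethylates H3K36, read 7.13, 7.18, 7.38 and 7.28 log2 CPM in scr tumors and 6.42, 6.55, 6.55 and 6.71 in IL6KOs1 tumors (log2 fold change -0.69 ± 0.09, limma adjusted p = 0.000154). Nsd1, an H3K36 dimethyltransferase, had 6.82, 6.91, 7.11 and 7.06 log2 CPM against 6.49, 6.26, 6.59 and 6.86. Its groups overlapped through IL6KOs1 tumor 4 and scr tumor 1, and its log2 fold change was -0.43 ± 0.12 (limma adjusted p = 0.0152). With the length and GC trend removed it was -0.18 (limma adjusted p = 0.0913), and with unmoderated variance the adjusted p was 0.063.

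Within Polycomb repressive complex 2, the scaffolding subunits fell and the catalytic ones did not pass. Suz12 was at 6.99, 7.04, 6.83 and 7.07 log2 CPM in scr tumors and at 6.56, 6.55, 6.51 and 6.65 in IL6KOs1 tumors, 75.0% of the scr level (limma adjusted p = 0.00184). Eed, which binds trimethylated H3K27, had 6.03, 6.22, 6.09 and 6.20 log2 CPM in scr tumors and 5.86, 5.84, 5.85 and 5.85 in IL6KOs1 tumors. The knockout tumors were nearly identical, and Eed fell by 0.28 on the log2 scale (SE 0.08, limma adjusted p = 0.0131). With the median of the surrounding 10 Mb removed in each tumor, its value was -0.10 (limma adjusted p = 0.279). Catalytic Ezh2 had a log2 fold change of -0.11 (adjusted p = 0.378 by limma) and its paralog Ezh1 one of 0.15 (0.156), although the Ezh1 groups did not overlap. Ezh1 passed at 0.28 with regional medians removed (limma adjusted p = 0.0168).
Among H3K9 methyltransferases, Ehmt1 (GLP) read 6.44, 6.27, 6.33 and 6.30 log2 CPM in scr tumors and 6.12, 5.94, 5.92 and 6.17 in IL6KOs1 tumors (log2 fold change -0.30 ± 0.09, limma adjusted p = 0.0186). Without IL6KOs1 tumor 3 it was -0.26 (limma adjusted p = 0.0616). Its partner Ehmt2 (G9a) and the heterochromatin enzyme Setdb1 had 0.03 and -0.17 and did not pass. Setdb1 passed at -0.41 with regional medians removed (limma adjusted p = 0.00293).

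Of the 11 lysine demethylases 3 fell, against 20.7% of all tested genes, and these include the largest decrease of all members. Kdm6b, which removes methyl groups from H3K27 and is known as an inducible gene of inflammatory signalling, was at 6.55, 6.32, 6.87 and 6.88 log2 CPM in scr tumors 1 to 4 and at 5.65, 4.79, 4.96 and 5.18 in IL6KOs1 tumors 1 to 4. The 4 knockout tumors were all lower than any control, with IL6KOs1 tumor 1 the highest of them. Its level was 35.1% of that in scr tumors (log2 fold change -1.51 ± 0.18, SE, limma adjusted p = 9.15e-05).
Kdm5b, an H3K4 demethylase, read 6.73, 6.69, 6.86 and 6.90 log2 CPM in scr tumors and 5.67, 5.47, 5.59 and 5.42 in IL6KOs1 tumors. More than 1 log2 unit lay between the lowest control and the highest knockout tumor, and the level was 41.7% of that in scr tumors (log2 fold change -1.26 ± 0.09, limma adjusted p = 2.39e-06). The H3K9 demethylase Kdm3b had 6.38, 6.34, 6.43 and 6.46 log2 CPM against 6.20, 6.10, 6.19 and 6.24, a change of -0.22 ± 0.07 (limma adjusted p = 0.0332), and 24.6% of its exon bases also lie in Gm26538 on the other strand. This call was lost without scr tumor 3 or 4 and without IL6KOs1 tumor 1, 2 or 3, with adjusted p between 0.053 and 0.0950. The value itself was -0.10 with regional medians removed (limma adjusted p = 0.235) and -0.08 with the length and GC trend removed (0.373). The hypoxia-inducible Kdm3a had a larger value, -0.48, but varied more between tumors, from 6.52 to 7.22 log2 CPM in scr and from 6.06 to 7.0 in IL6KOs1, and did not pass (limma adjusted p = 0.0678). It passed at -0.64 without scr tumor 1 (adjusted p = 0.0169) and at -0.64 without IL6KOs1 tumor 1 (0.0113). The other 7 did not pass, with log2 fold changes between -0.21 (Kdm1a and Kdm5a) and 0.06 (Kdm4a), of which Kdm1a passed at -0.27 without IL6KOs1 tumor 2 (limma adjusted p = 0.0353). Kdm2a, Kdm1a and Kdm3a passed with regional medians removed, at -0.37, -0.28 and -0.62 (limma adjusted p = 0.00473, 0.0134 and 0.0358). Kdm1a also passed at -0.30 with the length and GC trend removed (limma adjusted p = 0.00618).

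**Figure D2:**
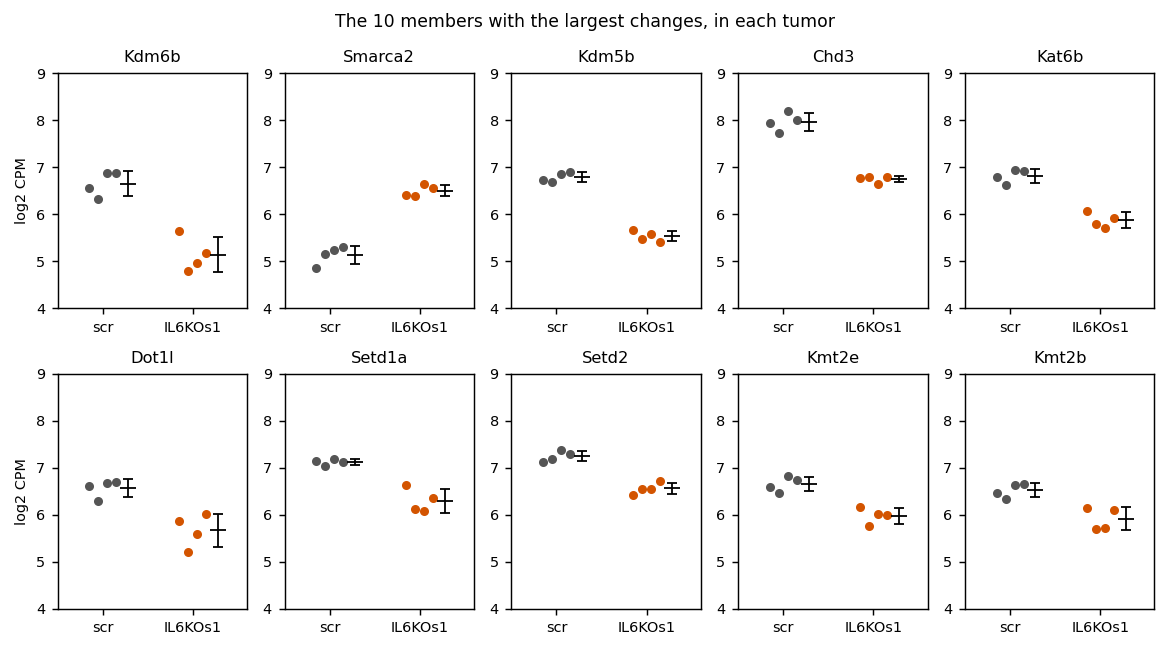
Log2 CPM (y axis) of the 10 members with the largest absolute log2 fold changes among those that passed, in the 4 scr (grey) and 4 IL6KOs1 (orange) tumors. Bars are the mean and SD. In each panel the groups do not overlap, and Smarca2 is the one gene with its knockout tumors above the controls.

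Lysine acetyltransferases fell in 5 of 6 cases, against 20.7% of all tested genes. Of these 5, Kat6b and Kat2a also passed with the length and GC trend removed. The other 3 did not, at -0.22 for Kat6a, -0.19 for Crebbp and -0.12 for Ep300 (limma adjusted p = 0.0592, 0.167 and 0.204). The largest change was in Kat6b (MORF), an H3K23 acetyltransferase of the MYST family, at 6.79, 6.63, 6.94 and 6.93 log2 CPM in scr tumors and at 6.08, 5.80, 5.70 and 5.93 in IL6KOs1 tumors. The groups were well separated, and the level was 52% of that in scr tumors (log2 fold change -0.94 ± 0.105, SE, limma adjusted p = 5.69e-05). Its paralog Kat6a (MOZ) had 6.99, 6.83, 7.20 and 7.08 log2 CPM against 6.70, 6.36, 6.55 and 6.83, a change of -0.41 ± 0.11 (limma adjusted p = 0.0132) with scr tumor 2 and IL6KOs1 tumor 4 level.
The coactivator Crebbp (CBP) was at 4.98, 4.79, 5.07 and 4.91 log2 CPM in scr tumors and at 4.73, 4.19, 4.42 and 4.70 in IL6KOs1 tumors, falling by 0.43 (SE 0.13, limma adjusted p = 0.0238). Without scr tumor 3 or 4, or without IL6KOs1 tumor 2 or 3, its adjusted p was between 0.0504 and 0.0720. The closely related Ep300 fell by 0.33 (limma adjusted p = 0.0160, and 0.0525 without scr tumor 3). Kat2a (GCN5), the acetyltransferase of SAGA, fell by 0.28 (limma adjusted p = 0.0286) and missed the threshold without scr tumor 1 or IL6KOs1 tumor 2 or 3, at 0.0547 to 0.0839, and with regional medians removed, at -0.15 (0.192). Its paralog Kat2b (PCAF) had a positive value of 0.25 and missed the threshold (limma adjusted p = 0.0551). Without scr tumor 4 it was 0.30 (0.0462), without IL6KOs1 tumor 1 it was 0.32 (0.0180).

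Histone deacetylases passed the test in 1 of 7 cases, a decrease, where 20.7% of all tested genes were lower and 19.1% higher. Of the class I enzymes Hdac1, Hdac2 and Hdac3, which act in nuclear corepressor complexes, 0 of 3 passed with limma, 2 had an unadjusted p under 0.05, and 0 passed with limma-voom weights. Their log2 fold changes were -0.17, 0.22 and -0.17. Hdac2 lies in a 10 Mb window whose 28 tested genes had a median of 0.56, and with such medians removed it was -0.31 (limma adjusted p = 0.01). It passed at 0.27 without scr tumor 2 (0.046), and Hdac1 at -0.25 without scr tumor 1 (0.0207). Hdac1 and Hdac3 both passed with the length and GC trend removed, at -0.34 and -0.22 (limma adjusted p = 0.0159 and 0.0243).
Among class IIa enzymes, which shuttle between cytoplasm and nucleus, Hdac4 fell. It was the least abundant member per transcript length and read 4.30, 3.90, 4.32 and 4.24 log2 CPM in scr tumors and 3.57, 3.72, 3.79 and 3.71 in IL6KOs1 tumors, 71.1% of the scr level (limma adjusted p = 0.0101). Its window of 43 genes had a median of -0.41, and with regional medians removed the Hdac4 value was -0.09 (limma adjusted p = 0.628), and with the length and GC trend removed it was -0.30 (0.0596). In addition, 22.4% of its exon bases belong to the opposite-strand gene Gm26720. Hdac5, Hdac7 and Hdac9 did not pass, at -0.17, -0.06 and -0.26.

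Of the arginine methyltransferases, Prmt1 and Carm1, both linked to activation, fell, whereas Prmt5, which deposits symmetric dimethylarginine, did not pass at -0.13. Prmt5 passed at -0.28 with regional medians removed (limma adjusted p = 0.028). Prmt1, the most abundant member per transcript length, was at 7.80, 8.01, 7.99 and 7.94 log2 CPM in scr tumors and at 7.44, 7.50, 7.30 and 7.36 in IL6KOs1 tumors. The groups did not overlap and the level was 69.0% of that in scr tumors (log2 fold change -0.54 ± 0.08, SE, limma adjusted p = 0.000415). Carm1 had 5.82, 5.68, 5.72 and 5.62 log2 CPM against 5.45, 5.31, 4.98 and 5.23, a change of -0.47 ± 0.11 (limma adjusted p = 0.00503), and shares 21.1% of its exon bases with Yipf2 on the other strand.

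The remodellers hold the one increase and the third largest decrease among the members. Smarca2 (BRM), one of the alternative ATPases of BAF complexes, was at 4.87, 5.15, 5.25 and 5.30 log2 CPM in scr tumors 1 to 4 and at 6.41, 6.39, 6.64 and 6.57 in IL6KOs1 tumors 1 to 4. All knockout tumors lay more than 1 log2 unit above all controls, and the rise was 2.56-fold (log2 fold change 1.36 ± 0.11, SE, limma adjusted p = 6.32e-06). Per kilobase of transcript its mean level went from rank 47 of the 52 members in scr tumors, at 2.58 log2 CPM per kb, to 3.93 in IL6KOs1 tumors. The alternative ATPase Smarca4 (BRG1) had 7.15 ± 0.25 log2 CPM in scr tumors and 6.93 ± 0.12 in IL6KOs1 tumors (SD, n = 4 each) and did not pass (limma adjusted p = 0.165).
Chd3, an ATPase of the NuRD deacetylase complex, read 7.94, 7.73, 8.19 and 8.0 log2 CPM in scr tumors and 6.78, 6.80, 6.65 and 6.79 in IL6KOs1 tumors. The knockout values were tightly grouped at 43.3% of the scr level (log2 fold change -1.21 ± 0.10, limma adjusted p = 6.55e-06). Chd4, the other large NuRD ATPase, differed by -0.03 (limma adjusted p = 0.830). Of the DNA-binding BAF subunits, Arid1a was at 7.34, 7.04, 7.29 and 7.25 log2 CPM against 6.88, 6.78, 6.71 and 6.95, a change of -0.40 ± 0.09 (limma adjusted p = 0.00466), or -0.15 (0.0682) with the length and GC trend removed. Arid2, of the PBAF form, fell by 0.27 (limma adjusted p = 0.0229, and 0.0554 to 0.0799 without scr tumor 3 or 4 or IL6KOs1 tumor 1) and was at -0.08 (0.446) under the same removal, and Arid1b had -0.24 and did not pass, though it did at -0.32 without scr tumor 2 (0.0202).

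Because many of these enzymes come in pairs that share one reaction, the log2 ratio within each of 17 paralog pairs was compared between the groups, a quantity that library scaling cannot move. In 9 pairs the ratio did not overlap between groups and reached p = 0.0286, the smallest value a two-sided exact permutation test of 4 against 4 can give. The share of such ratios among other gene pairs was not computed, and 37.1% of all tested genes separated the groups singly. After adjustment over the 17 pairs those values were 0.0540, so 0 pairs passed by this exact test. Because of that floor, a pair can pass only if enough others reach it too, whatever the size of its own shift. The adjusted value was 0.0540 with 9 pairs at the floor and 0.0486 with 10. The numbers of passing pairs given here therefore say nothing about any single pair. Without IL6KOs1 tumor 1, 10 pairs passed (adjusted p = 0.0486), namely these 9 and Kmt2a over Kmt2b, and without any 1 of the other 7 tumors 0 passed, with 6 to 9 at an unadjusted p of 0.0286. With the length and GC trend removed, 11 passed, and with regional medians removed 0 passed (adjusted p of 0.081 or more).
The widest shift was in the BAF ATPases. Smarca2 stood at -2.63, -1.85, -1.87 and -1.65 log2 relative to Smarca4 in scr tumors and at -0.69, -0.52, -0.16 and -0.34 in IL6KOs1 tumors, a change in the log2 ratio of 1.58. The next widest shift was in the NuRD ATPases, where the gene listed first was the one that fell. Chd3 over Chd4 was -0.55, -0.31, 0.07 and -0.15 in scr tumors and -1.44, -1.46, -1.37 and -1.37 in IL6KOs1 tumors, a change of -1.18. Kdm5a over Kdm5b went from -0.39, -0.27, -0.05 and -0.21 to 0.71, 0.75, 0.90 and 0.94, a change of 1.06. Per kilobase of transcript, the mean level of Kdm5b was above that of Kdm5a in scr tumors (3.67 and 3.11 log2 CPM per kb) and below it in IL6KOs1 tumors (2.41 and 2.91).
The remaining non-overlapping ratios were Hdac1 over Hdac2 (change -0.39), Setd1a over Setd1b (-0.64), Kat2a over Kat2b (-0.53), Kat6a over Kat6b (0.53), Ehmt1 over Ehmt2 (-0.32) and Hdac4 over Hdac5 (-0.32). Ep300 over Crebbp changed by 0.10 and Kdm2a over Kdm2b by 0.15, and their groups overlapped. With regional medians removed, Hdac1 over Hdac2 changed by 0.13 (exact permutation p = 0.229) and Hdac4 over Hdac5 by -0.04 (0.714). Under that removal Setd1a over Setd1b changed by -0.38 and Kat2a over Kat2b by -0.45 (0.0571 each). Kat6a over Kat6b, at 0.59, and Ehmt1 over Ehmt2, at -0.27, stayed at 0.0286.

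**Figure D3:**
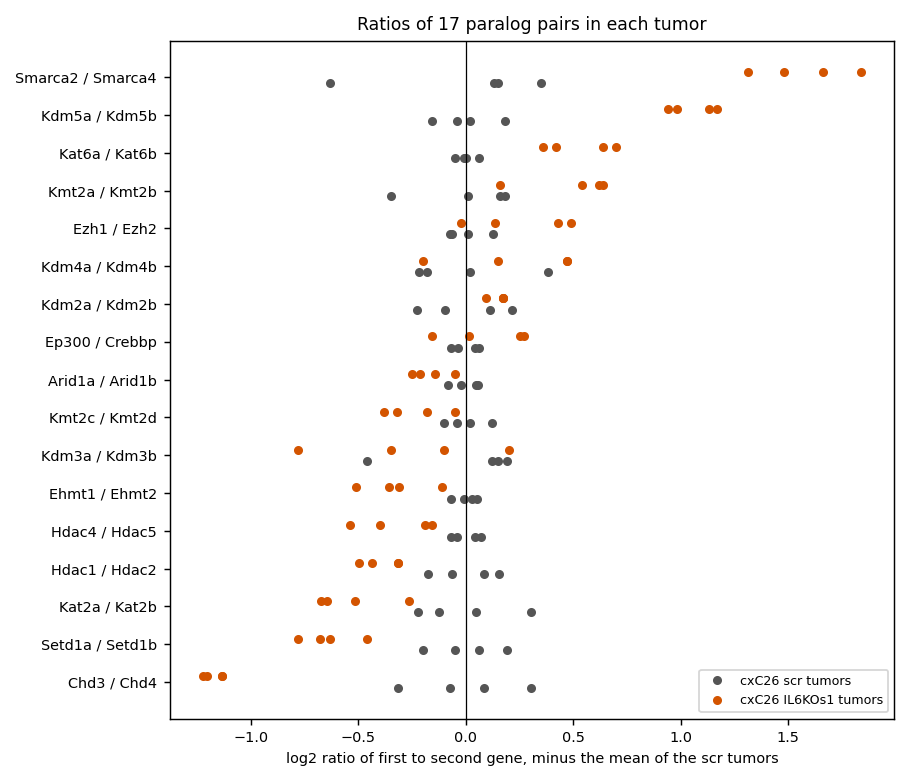
Log2 ratio of the first to the second gene of each of 17 paralog pairs, minus the mean of the scr tumors (x axis), in 4 scr (grey) and 4 IL6KOs1 (orange) tumors. The groups are separate in 9 pairs, with changes from -1.18 (Chd3 / Chd4) to 1.58 (Smarca2 / Smarca4).

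Position moved with the level of some members. Chd3 (chr11:69343273-69369499) and Kdm6b (chr11:69398508-69420367, both on GRCm38) are neighbours, and of 9 other tested genes within 200 kb of either, 6 were lower, 1 (Tmem88, 0.64) was higher and 2 did not pass. The lower ones ranged from -0.32 (Trappc1) to -1.47 (Kcnab3), while the 10 Mb window around them, with 110 tested genes, had a median of -0.16. With regional medians removed, Kdm6b was at -1.34 and Chd3 at -1.03. Kdm5b (chr1:134560178-134632878) lies in a window with a median of -0.33, and 4 of its 6 tested neighbours within 200 kb were lower, at most by 0.53 (Rabif), and its value without the regional median was -0.97. Smarca2 (chr19:26605073-26778321) had no tested neighbour within 200 kb, its window had a median of 0.12 and its value without it was 1.20. All 4 members on chromosome 7 (Kmt2b, Setd1a, Eed and Prmt1) and both on chromosome 1 fell, and the medians of all tested genes of those chromosomes were -0.27 and -0.34. Over all tested genes 20.7% were lower, and the shares for single chromosomes or other stretches of 200 kb were not computed.

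Transcript length moved with the result as well. The longest annotated transcript of the members had a median of 6431.5 bases, against 3377 over all tested genes with a known length, and 35 of the 52 members were in the longest of 4 equal-sized classes of length. In that class the median log2 fold change of all tested genes was -0.12 and 30.7% were lower, whereas in the shortest class it was 0.09 and 11.9%. Of the 35 long members 19 were lower, with a median of -0.27. When a smooth trend on length and GC content was removed in each tumor, 18 members were lower and 3 higher (Smarca2, Kat2b and Kmt2d) in place of 24 and 1, the members' median moved to -0.14 against -0.04 for all tested genes, and Kdm6b, Kdm5b, Chd3 and Smarca2 kept log2 fold changes of -1.25, -1.07, -1.0 and 1.46.

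**Figure D4:**
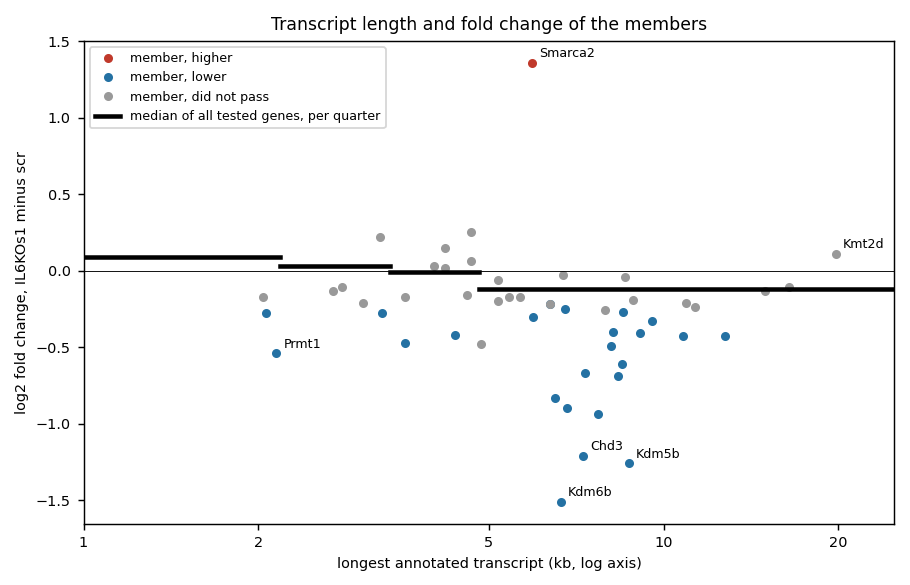
Log2 fold change (y axis) of the 52 members against the length of their longest annotated transcript (x axis, kb, log scale), coloured by call, with black lines for the median of all tested genes in each of 4 equal-sized classes of length. The black line steps down from 0.09 to -0.12, and most members lie to the right, where Kdm6b, Chd3 and Kdm5b are far below it and Smarca2 far above.

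Related chromatin genes outside the list, also chosen with earlier results known, were counted beside the members. Of 100 further enzymes and complex subunits, 97 were tested, 29 fell (29.9%, against 20.7% of tested genes) and 8 rose (8.25%, against 19.1%), with a median of -0.13. The difference between this share and that of the members was not tested, and the 8 increases became 3 to 5 on leaving out any 1 tumor except scr tumor 1, and 6 without that one. The largest called decrease was in Suv39h1, an H3K9 methyltransferase that shares 14.6% of its exon bases with Gm14820 on the other strand, from 7.01 ± 0.07 to 5.98 ± 0.15 log2 CPM (SD, n = 4 each, log2 fold change -1.03, limma adjusted p = 1.14e-05). Next to it, the H3K36 methyltransferase Nsd2 fell by 0.65 and the demethylases Kdm6a, the paralog of Kdm6b, and Phf2 by 0.45 and 0.44.
Among further remodellers Chd6 fell by 0.97 and Srcap by 0.69, the latter sharing 61.7% of its exon bases with Gm42715. BAF subunits were mixed, with Smarcc1, a core subunit, falling by 0.88 and Dpf1 by 0.73, whereas Smarcb1 rose by 0.37 and Brd9 by 0.30. Other deacetylases were the one group with more increases than decreases, 3 against 1, led by Hdac8 at 0.54 and Hdac10 at 0.31. In the remaining groups Rbbp5 and Mtf2 (methyltransferase complexes) each fell by 0.44, Rcor1 and Gatad2b (deacetylase complexes) by 0.54 and 0.51, the acetyltransferase Kat8 by 0.37, Prmt6 by 0.27 (23.4% of its exon bases shared with C130013H08Rik) and Tet2, which oxidizes methylcytosine, by 0.68.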

How the data were processed

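RNA was sequenced from 4 cxC26 scr and 4 cxC26 IL6KOs1 tumors, which were assigned to groups by their titles. The authors enriched polyadenylated RNA, aligned reads to mm10 with Hisat2, counted them per gene and deposited log2 CPM values from limma-voom (offset 0.5 reads). The strand setting and annotation are not given in the sources used here, and the kit does not mark strand. Whole reads, recovered by inverting the transformation, gave 14158989 to 17048062 reads per tumor and limit low genes. Genes reaching 1 CPM in 4 or more tumors, 13262 in all, were fitted with limma 3.58.1 (R 4.3.3, eBayes with trend, no covariates), Benjamini-Hochberg over all of them, threshold 0.05. Paralog ratios used two-sided exact permutation tests. On simulated reads for this comparison, 189 of 199 genes changed by 1 on the log2 scale were recovered among 13378, with 16 false calls. The simulation had a single dispersion of 0.03 and far fewer changed genes than were called in the data. It does not measure how well smaller changes are recovered. Members, related genes, pairs and markers were chosen with earlier results of these data known. In each role group, up to 3 called members with the largest changes, and the 5 largest in each direction, are given per tumor, and up to 2 related genes per list. Brd9 and Smarcb1, outside that rule, were chosen after their values were seen. Positions come from RefSeq (GRCm38.p6), lengths and exon overlaps from GENCODE. P-values measure the spread between tumors, for which the labels name no mice. Alternatives covered filters, variance models, normalization, offset, fold threshold, replicate block, single tumors left out, regional medians, and length and GC trends.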

Additional observations from a re-analysis of the deposited data

Results flagged for a closer look

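In 194 groups of 4 tumors (members, paralog ratios, named related genes, marker scores and Il6), 10 had a tumor set apart from the other 3 by Dixon's criterion at 95%, against 9.7 that chance would give at about 1 in 20 groups. Scr tumor 1 accounted for 4 of them, with high Kdm2b (5.32 log2 CPM, the others 4.86 to 4.94), high Kdm4a (6.72, the others 6.32 to 6.36), high Smarcc1 (7.97, the others 7.76 to 7.79) and a low Kdm3a over Kdm3b log2 ratio (0.14, the others 0.72 to 0.79). IL6KOs1 tumor 3 was low in Chd3 (6.65, the others 6.78 to 6.80) and in the Kdm2a over Kdm2b log2 ratio (2.34, the others 2.42) and high in Il6 (2.46, the others 1.99 to 2.04). The last 3 were IL6KOs1 tumor 2 for Chd6 (5.01, the others 5.51 to 5.58), IL6KOs1 tumor 1 for Mtf2 (4.98, the others 5.23 to 5.26) and IL6KOs1 tumor 4 for the neutrophil score (-0.08 log2 CPM, the others 0.71 to 0.86).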

How the results depend on the processing

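Of the 25 called members 13 kept their direction and call under all 19 refitted alternatives, namely Kmt2b, Setd1a, Kmt2e, Setd2, Dot1l, Suz12, Kdm5b, Kdm6b, Kat6b, Prmt1, Carm1, Smarca2 and Chd3, and 12 lost it under at least 1. With the length and GC trend removed the calls lost were Setd5, Nsd1, Kdm3b, Kat6a, Ep300, Crebbp, Hdac4, Arid1a and Arid2, and with regional medians removed Eed, Kdm3b, Kat2a and Hdac4. Of the members not called, 13 passed under at least 1 alternative. Gained with regional medians removed were Ezh1 (0.28), Setdb1 (-0.41), Kdm1a (-0.28), Kdm2a (-0.37), Kdm3a (-0.62), Kat2b (0.30), Hdac2 (-0.31) and Prmt5 (-0.28). Gained with the length and GC trend removed were Kmt2d (0.50), Kdm1a (-0.30), Kat2b (0.28), Hdac1 (-0.34) and Hdac3 (-0.22). Hdac9 (-0.26) passed with the replicate block. Lower members numbered 18 to 26 across those alternatives (19 to 25 with single tumors left out) and 9 when a 1.5-fold change was also required, where related genes had 7 lower and 0 higher calls. Higher members numbered 2 with quantile normalization, 2 with the replicate block, 3 with regional medians removed and 3 with the length and GC trend removed, and 1 to 2 with single tumors left out, the added gene being Kat2b without scr tumor 4 or IL6KOs1 tumor 1 and Hdac2 (0.27, adjusted p = 0.046) without scr tumor 2. Related genes higher numbered 3 without a filter, 4 without a variance trend, 5 with the block, 5 with regional medians removed and 3 to 6 with single tumors left out. The members' median was -0.14 with the length and GC trend removed and -0.27 to -0.23 with single tumors left out. With that trend removed 11 paralog pairs passed, at adjusted p = 0.0442, and with regional medians removed 0 passed (adjusted p of 0.081 or more). With single tumors left out 0 to 10 pairs passed, the 10 being without IL6KOs1 tumor 1 (adjusted p = 0.0486). Same-numbered tumors did not deviate together (correlations -0.06 to 0.06). The labels do not say whether the numbers pair tumors, and these correlations cannot settle it. The replicate block otherwise gave 25 lower members and 31 lower related genes. Members that changed sign were not called in the report. With the length and GC trend removed these were Kmt2a at 0.17, Kmt2c 0.15, Setd1b 0.12, Kdm2a 0.14, Kdm5a 0.01, Hdac5 0.04, Hdac7 0.15, Arid1b 0.02 and Chd4 0.12, and with regional medians removed Kmt2c at 0.23, Ehmt2 -0.01, Kdm4c -0.17 and Hdac2 -0.31. Chd4 was at 0.01 with quantile normalization and, with single tumors left out, between -0.09 and 0.06, Kdm4c between -0.05 and 0.08, Ehmt2 between -0.01 and 0.07 and Kmt2d between -0.03 and 0.21. The cause of these shifts was not tested. Read depth limited Hdac4 most, at 182 reads in 1 tumor.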
